A study of Mus musculus with 6 samples.

Results

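The inner root sheath genes described here are 8 genes chosen by symbol, Krt25, Krt26, Krt27, Krt28, Krt71, Krt73, Krt74 and Tchh, out of 24014 genes listed for each library, and all 8 were listed and passed the filter on low counts. The libraries hold RNA of epidermal cells from the back skin of wild type mouse pups at P2 (postnatal day 2). Of these, 3 came from healing skin on which a blister had been raised by suction at 523.4 ± 1.3 mmHg through a syringe 4 mm wide (a typical blister was 3 mm across), and 3 from control skin of the same age. In both groups 0.25% trypsin freed the epidermis, which was cut up and strained (70 µm). Hair follicles that came away with the epidermis may have been part of the sample, in an amount that is not stated. The labels give no strain or sex and no time from blistering to collection. They also do not say whether each library is a different animal, so p-values reflect only library-to-library spread, part of which may be technical.

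The inner root sheath is the rigid sleeve around the growing hair shaft, built from the Henle layer, the Huxley layer and a cuticle, and it guides the shaft through the follicle. Its cells assemble keratin filaments in which a type I (acidic) keratin pairs with a type II (basic) keratin. Trichohyalin, the product of Tchh, binds these filaments and is then citrullinated by peptidylarginine deiminases and cross-linked by transglutaminases, which hardens the sheath. Krt25, Krt27 and Krt28 are type I and Krt71 is type II, and all of them are known from every layer of the sheath. Krt26 (type I) and Krt73 (type II) are known from its cuticle, and Krt74 (type II) from the Huxley layer in humans. In the mouse, both RefSeq and GENCODE M21 class Krt74 as a transcribed pseudogene. Tchh is also known from the medulla of the hair shaft.

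The keratin members lie in 2 blocks of adjacent genes, and the stretches just before their start sites show what these genes have in common outside the RNA measurements. RefSeq (GRCm38.p6) gave a promoter for 7 of the 8 members, and the 250 bases before each start were searched on both strands for the spelled motifs TATAAA and GATAA, which do not overlap each other here. TATAAA was found before 6 of the 7 genes, all but Tchh, against 12.4% of 32851 promoters in the table. GATAA, the core of sites bound by GATA factors, was found before 6 of the 7, all but Krt26, against 22.6% of all promoters, and AGATAA, which contains it, before 5, against 9.99%. AATTA, a homeodomain core, was found before 6, all but Tchh, against 25%, CTTTGNT, a TCF/LEF core, before 2 (Krt25 and Krt71) against 16.0%, and TGANTCA, the AP-1 core, before 0 against 6.75%. The motifs were chosen with the sequences in view, and a match is a description of letters, not a bound site. The windows held from 27.6% (Tchh) to 48.0% (Krt71) G or C, and the shares of all promoters were not matched for base composition. Windows of related genes, such as Krt71 and Krt73, were counted as separate. Shown are the pairs whose 250 bases aligned with the highest scores, Krt71 with Krt73 and Krt25 with Krt27, and the genes that each lack one of the motifs, Krt26 and Tchh. Capitals mark every GATAA and TATAAA, and each run is written 5′ to 3′ along the gene and ends at the base before the start.
Krt71: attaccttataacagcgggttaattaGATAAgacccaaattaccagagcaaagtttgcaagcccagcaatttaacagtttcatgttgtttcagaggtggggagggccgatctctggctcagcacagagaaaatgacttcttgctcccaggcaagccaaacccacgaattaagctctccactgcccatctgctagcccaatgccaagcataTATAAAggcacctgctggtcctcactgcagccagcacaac
Krt73: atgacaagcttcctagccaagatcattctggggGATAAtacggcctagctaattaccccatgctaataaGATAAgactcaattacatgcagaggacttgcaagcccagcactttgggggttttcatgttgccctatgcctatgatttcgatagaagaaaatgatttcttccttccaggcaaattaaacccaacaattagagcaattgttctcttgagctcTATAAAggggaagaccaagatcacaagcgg
Krt25: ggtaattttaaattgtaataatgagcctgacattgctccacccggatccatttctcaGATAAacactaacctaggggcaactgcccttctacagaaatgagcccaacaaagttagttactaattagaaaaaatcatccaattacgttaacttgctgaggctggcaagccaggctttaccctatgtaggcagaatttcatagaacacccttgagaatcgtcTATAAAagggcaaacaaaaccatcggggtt
Krt27: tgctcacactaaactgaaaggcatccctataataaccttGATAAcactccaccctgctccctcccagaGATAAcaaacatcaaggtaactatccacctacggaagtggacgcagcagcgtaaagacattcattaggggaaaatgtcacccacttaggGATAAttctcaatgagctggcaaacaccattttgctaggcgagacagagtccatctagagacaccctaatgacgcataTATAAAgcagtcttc
Krt26: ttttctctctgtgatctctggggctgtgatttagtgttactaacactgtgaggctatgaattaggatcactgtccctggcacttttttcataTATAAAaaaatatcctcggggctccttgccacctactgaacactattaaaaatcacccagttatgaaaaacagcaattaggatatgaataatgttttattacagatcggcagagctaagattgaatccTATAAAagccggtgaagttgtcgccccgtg
Tchh: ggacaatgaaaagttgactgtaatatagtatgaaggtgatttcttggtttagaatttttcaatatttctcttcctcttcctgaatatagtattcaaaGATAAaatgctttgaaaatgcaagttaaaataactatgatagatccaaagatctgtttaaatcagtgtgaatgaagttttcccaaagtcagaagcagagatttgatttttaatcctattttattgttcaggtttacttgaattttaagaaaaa

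In GRCm38.p6 these windows are chr15:101743098-101743347 and chr15:101802361-101802610 for Krt71 and Krt73, chr11:99322952-99323201, chr11:99351119-99351368 and chr11:99337966-99338215 for Krt25, Krt27 and Krt26, all on the minus strand, and chr3:93442080-93442329 for Tchh on the plus strand. The Krt71 and Krt73 windows aligned over 172 columns with 66.3% identity and shared a run of 14 bases, TTGCAAGCCCAGCA, which begins 196 bases before the start of Krt71 and 154 bases before that of Krt73. The Krt25 and Krt27 windows aligned over 220 columns with 62.7% identity. TATAAA began 30 bases before the start in Krt25, Krt26, Krt28 and Krt73, 40 bases before it in Krt71 and 15 bases before it in Krt27, and Krt26 held another copy 158 bases before its start. Each GATAA lay on the strand of its gene.

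Blistered and control skin were compared to see what healing changed in the epidermal RNA. The inner root sheath genes were lower in every blister library than in any control library, for 8 of 8 members, a pattern that 23.2% of the 14028 genes tested also showed. Of the 8, 7 fell in edgeR's quasi-likelihood test (Benjamini-Hochberg adjusted p below 0.05 over all genes tested), where 11.6% of all genes were called lower. The member that did not pass was Krt25, whose blister libraries differed most from one another. The median log2 fold change of the 8 was -3.25, against 0.0019 over all genes tested. Summed over the 8 genes, the normalised read count (CPM, the count scaled to the library total times its TMM factor) was 184, 108 and 889 in blister libraries 1 to 3, versus 4986, 2836 and 2501 in control libraries 1 to 3. Blister 3 held several times more of this RNA than the other blister libraries and still less than any control. In a bulk sample, fewer inner root sheath cells and less of this RNA per cell cannot be told apart.

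**Figure D1:**
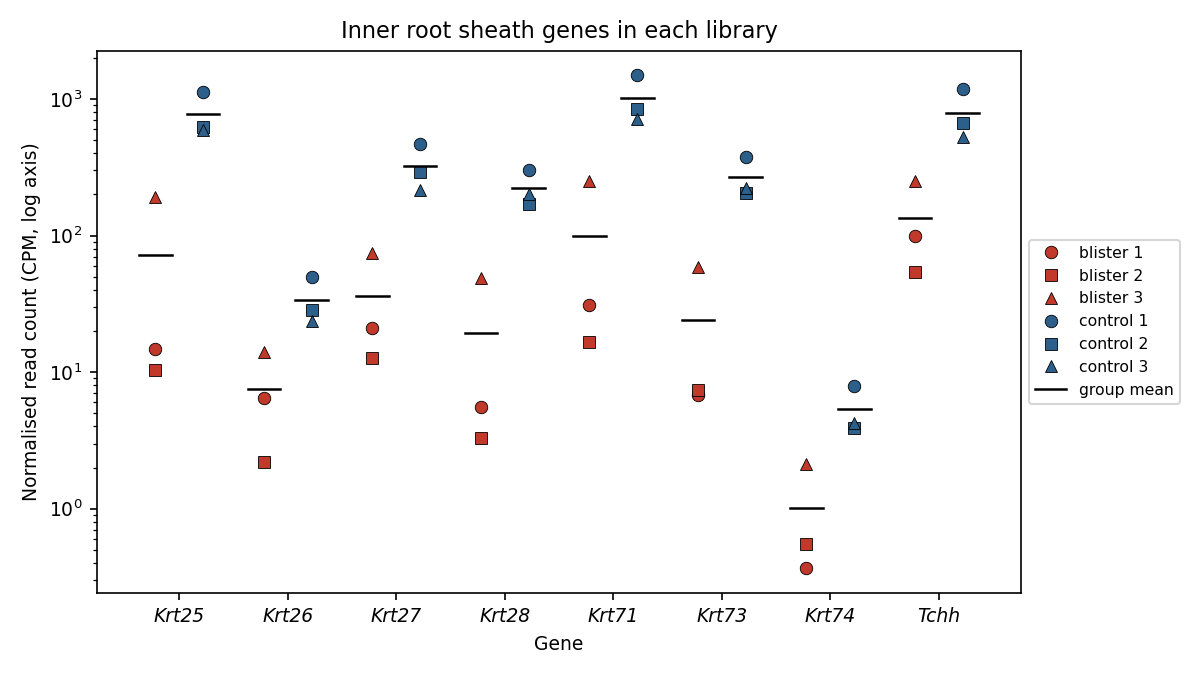
Normalised read count (CPM, log axis) of each inner root sheath gene in each of the 6 libraries, with red symbols for blister, blue for control, symbol shape for the library number and a bar at the group mean. For each gene the red symbols lie below the blue ones, and blister 3 (red triangle) is the highest of the blister libraries, at 190 CPM for Krt25 against 14.7 and 10.3 CPM in the others.

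Counts behind these values were large in controls and small in blister 1 and 2. Totals over all genes ran from 7600567 to 15912863 counts per library. The 8 genes took 64991, 40509 and 43962 counts in control libraries 1 to 3, and 2008, 782 and 10473 counts in blister 1, 2 and 3. As a share of all counts this was 0.553% (95% Wilson interval 0.549% to 0.558%), 0.300% (0.297% to 0.303%) and 0.276% (0.274% to 0.279%) in the controls, and 0.0155% (0.0148% to 0.0162%), 0.0103% (0.00959% to 0.0110%) and 0.0847% (0.0831% to 0.0863%) in the blister libraries. These intervals cover counting error only, and the differences between libraries of a group are far wider than they are.

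Among the type I members, the 3 known from every layer of the sheath had larger log2 changes than Krt26 of the cuticle. This did not hold for the cuticle as a whole, since its type II keratin Krt73 changed by -3.45. Krt25 stood at 14.7, 10.3 and 190 CPM in blister libraries 1 to 3, versus 1115, 623 and 595 CPM in control libraries 1 to 3. The controls lie within a 1.88-fold range, whereas blister 3 is 15.2 times the mean of blister 1 and 2. Its log2 fold change was -3.43 ± 1.07 (SE), where the edgeR adjusted p was 0.0576, and without blister 3 it was -5.94 ± 0.43 with an edgeR adjusted p of 0.00101. Krt28 stood at 5.60, 3.30 and 48.7 CPM after blistering, versus 302, 170 and 201 CPM in controls, so that blister 3 again sits between the other blister libraries and the controls. It fell by 3.51 ± 0.89 (SE) on the log2 scale (edgeR adjusted p = 0.0324). Krt27 stood at 20.9, 12.7 and 74.5 CPM after blistering, versus 465, 292 and 215 CPM in controls, and its blister libraries were closer together than those of Krt25. It fell by 3.15 ± 0.65 (SE) on the log2 scale, with an edgeR adjusted p of 0.0185, the smallest among the 8 genes.

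Krt26, the type I keratin of the sheath cuticle, was low in every library. It stood at 6.52, 2.20 and 13.9 CPM in blister 1, 2 and 3, from 71, 16 and 164 counts, and at 49.6, 28.3 and 23.5 CPM in control libraries 1 to 3, from 647, 404 and 414 counts. The lowest control was 1.69 times blister 3, the narrowest gap between the groups among the 8 genes. Krt26 fell by 2.12 ± 0.56 (SE) on the log2 scale (edgeR adjusted p = 0.0365), the smallest log2 change among the members.

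Among the type II members, Krt71, the partner found in every layer of the sheath, had the highest counts of the 7 keratins in each control. It stood at 30.9, 16.7 and 251 CPM after blistering, versus 1487, 845 and 714 CPM in controls, with blister 3 set apart as for Krt25. It fell by 3.34 ± 0.97 (SE) on the log2 scale, close to the threshold (edgeR adjusted p = 0.047). Krt73, of the sheath cuticle, stood at 6.79, 7.43 and 58.4 CPM after blistering, versus 376, 205 and 225 CPM in controls. Blister 1 and 2 were nearly equal for it, and blister 3 was 8.21 times their mean. Krt73 fell by 3.45 ± 0.82 (SE) on the log2 scale (edgeR adjusted p = 0.0266). Krt74, the transcribed pseudogene, had 4, 4 and 25 counts in blister libraries and 104, 56 and 74 counts in controls. This is 0.367 (exact Poisson 95% interval 0.10 to 0.940), 0.551 (0.15 to 1.41) and 2.12 (1.37 to 3.13) CPM against 7.98 (6.52 to 9.67), 3.92 (2.96 to 5.09) and 4.21 (3.31 to 5.28) CPM, so the interval of blister 3 reaches into that of control 2. Krt74 fell by 2.33 ± 0.62 (SE) on the log2 scale (edgeR adjusted p = 0.0371).

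Tchh, the trichohyalin gene, kept more of its control level than 5 of the 7 keratins. It stood at 98.5, 54.5 and 250 CPM after blistering, versus 1184, 668 and 524 CPM in controls, so that the control mean was 5.90 times the blister mean. Blister 3 was 3.26 times the mean of blister 1 and 2, a smaller gap than for Krt25 (15.2 times) or Krt71 (10.6 times). Tchh fell by 2.56 ± 0.57 (SE) on the log2 scale (edgeR adjusted p = 0.0226).

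Scaled to transcript length (CPM per kilobase of the first GENCODE M21 transcript model, which may not be the models the authors counted on), the order of levels in controls was Krt71 at 464 ± 189, Krt25 at 391 ± 147, Krt27 at 209 ± 82.5, Krt28 at 138 ± 42.3, Tchh at 136 ± 59.6, Krt73 at 124 ± 43.1, Krt26 at 13.7 ± 5.62 and Krt74 at 3.38 ± 1.42 (SD, n = 3). Control 1 was the highest control for each gene, so the SD includes a difference between libraries that the genes share. Krt71 exceeded Krt25, Krt27 exceeded Krt28 and Krt28 exceeded Krt73 in each control. On average each of these gaps was smaller than the SD of the higher gene. Tchh was above Krt28 and Krt73 in control 1 and control 2 and below both in control 3. Krt25 exceeded Krt27, Krt73 exceeded Krt26 and Krt26 exceeded Krt74 by more than either SD. On the same per-kilobase scale, Tchh was the highest of the 8 in blister 1 and 2 (16.9 and 9.36), ahead of Krt71 (14.1 and 7.62) and Krt27 (13.5 and 8.17), and Krt71 was the highest in blister 3 (115) as it was in each control. Krt74 was the lowest of the 8 in all 6 libraries.

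The make-up of inner root sheath RNA varied between libraries as well as its amount. Tchh supplied 53.4%, 50.6% and 28.1% of the counts of the 8 genes in blister 1, 2 and 3, with 95% Wilson intervals of 51.2% to 55.6%, 47.1% to 54.1% and 27.2% to 28.9%. In control 1, 2 and 3 it supplied 23.7%, 23.6% and 21.0%, with intervals of 23.4% to 24.1%, 23.1% to 24.0% and 20.6% to 21.3%. Krt25 went the other way, with 7.97%, 9.59% and 21.4% in blister libraries against 22.4%, 22% and 23.8% in controls, and blister 3 was close to the controls. Krt26 supplied 3.54%, 2.05% and 1.57% against 0.996%, 0.997% and 0.942%, so that its share was higher in each blister library although its level was lower. Shares of 1 total depend on each other, and these are descriptions of these libraries.

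**Figure D2:**
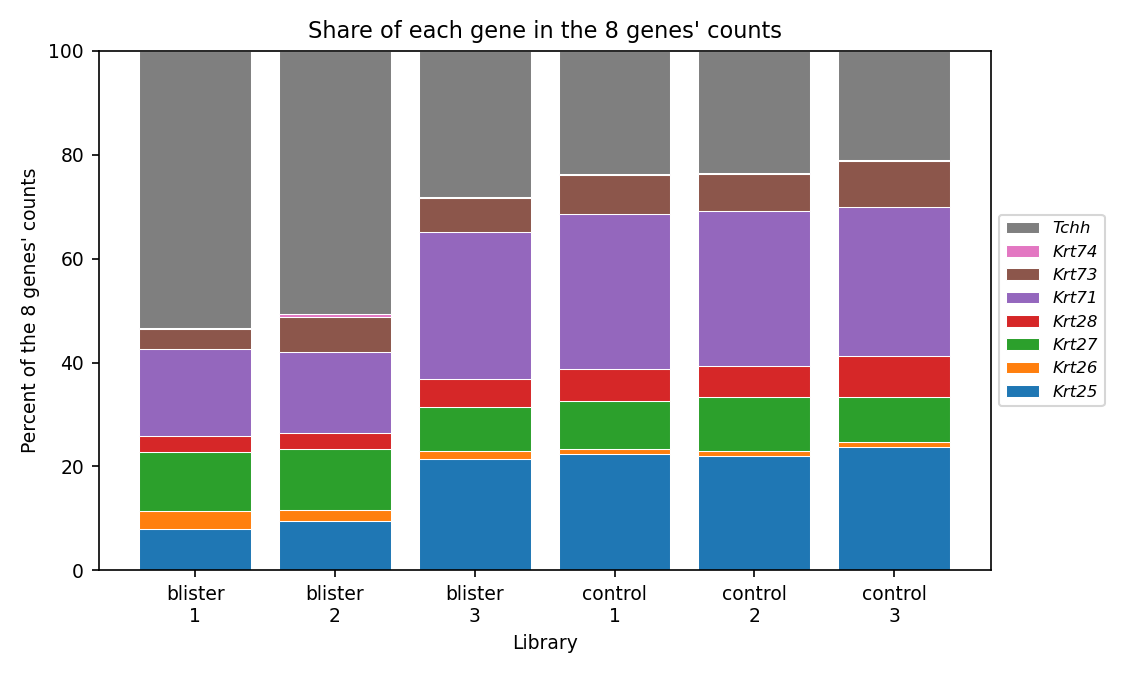
Share of each inner root sheath gene in the summed counts of the 8 genes, as stacked bars in percent for each library. Tchh (grey, top) fills 53.4% and 50.6% of blister 1 and 2 and between 21.0% and 23.7% of the controls, and blister 3 lies near the controls at 28.1%.

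Ratios between single genes do not depend on how libraries were scaled. Tchh was 6.71, 5.28 and 1.31 times Krt25 in blister libraries 1 to 3 and 1.06, 1.07 and 0.881 times Krt25 in control libraries 1 to 3. Krt26 over Krt25 was 0.444, 0.213 and 0.0731 in blister libraries and 0.0445, 0.0454 and 0.0396 in controls. Both ratios were higher in every blister library than in any control, and blister 3 lay nearest the controls in both. The mean log2 difference in the ratio was 1.84 for Tchh over Krt25 and 2.14 for Krt26 over Krt25, each with a two-sided exact permutation p of 0.1, the smallest that 3 libraries against 3 allow (adjusted p = 0.2 over the 8 ratios computed, which were chosen after the counts were seen). Krt74 over Krt71 and Krt72 over Krt71 did not overlap between the groups either, with mean log2 differences of 1.5 and 1.67 and the same exact permutation p of 0.1 (adjusted p = 0.2). By contrast, Krt28 over Krt25 (0.381, 0.320 and 0.256 against 0.270, 0.274 and 0.338) and Krt73 over Krt71 (0.220, 0.446 and 0.232 against 0.253, 0.243 and 0.315) overlapped, with exact permutation p of 0.7 and 1 (adjusted p of 0.8 and 1). Krt27 over Krt25 and Krt71 over Krt25 also overlapped, each with an exact permutation p of 0.3 (adjusted p = 0.4).

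The type I and type II sums were alike in size. Summed CPM of the type I members over that of the type II members was 1.25, 1.16 and 1.05 in blister libraries and 1.03, 1.06 and 1.10 in controls, and the groups overlapped. Reads of close relatives may be shared among them: of the 36-base stretches of the first transcript model, 14.4% of those of Krt25 and 15.8% of those of Krt27 also occur in another gene (each other, Krt28 or Krt15), against 2.67% to 4.41% for Krt28, Krt71, Krt73 and Krt74 and 0 for Krt26 and Tchh. The sources used here do not state how such reads were counted, so the split between Krt25 and Krt27 carries that uncertainty.

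Across the 6 libraries the 8 genes varied together. Pearson's r of log2 CPM between members lay between 0.923 and 0.998 over 28 pairs, each over 6 libraries that fall into 2 groups, and this is a description. Blister 3 was 3.19 times (Krt26) to 15.2 times (Krt25) the mean of blister 1 and 2. Without blister 3 the control mean was 7.76 times (Krt26) to 62.2 times (Krt25) the mean of blister 1 and 2, whereas the controls were 2.43 times (Krt26) to 4.60 times (Krt28) blister 3. Among controls, library 1 was the highest for each member, and the highest control was 1.77 to 2.26 times the lowest.

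The calls changed when 1 library was left out, and the share of all genes called lower moved along with them. Such fits hold fewer libraries, and the part of the smaller sample in these changes was not tested. Without blister 3, edgeR called 8 of 8 members lower, with adjusted p up to 0.0130, where 14.4% of all genes were called lower, and the members' median log2 fold change was -4.75. Without blister 1 or without control 1 edgeR called 0 of 8, with adjusted p of at least 0.0695 and 0.0576, where 3.46% and 3.37% of all genes were called lower. In both fits 8 of 8 had an unadjusted edgeR p under 0.05. With all libraries, 5477 of 14028 genes had one, and the number of all genes in these reduced fits is not given here. The members' medians were -2.88 and -2.88. Without blister 2, control 2 or control 3 the calls numbered 2, 1 and 2, beside 7.3%, 5.79% and 5.48% of all genes. With all libraries, DESeq2's Wald test called 8 of 8, with adjusted p up to 0.0202, and 14.4% of the genes to which it gave an adjusted p. With library totals alone, without TMM factors, edgeR called 8 of 8 and 20.2% of all genes lower. That scaling moved the median log2 fold change of all genes to -0.25 and gave 2831 lower and 544 higher calls, against 1626 and 1367 with TMM.

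Genes on either side of the members were split in direction. In the RefSeq gene order (GRCm38.p6), Krt25, Krt26, Krt27 and Krt28 are consecutive, and so are Krt71, Krt74, Krt72 and Krt73. Of the 18 nearest protein-coding genes that the files list, 3 on each side of each block and of Tchh, 17 were tested, of which 5 rose and 1 fell in edgeR's test, where 9.74% and 11.6% of all genes were called in those directions. Krt10, the suprabasal keratin next to Krt28, averaged 36667 CPM after blistering, versus 22038 CPM in controls (edgeR adjusted p = 0.239). Krt5, the basal keratin next to Krt71, rose from 11413 to 19644 CPM, and beyond it Krt6a and Krt6b, keratins of wounded epidermis, rose by 4.55 ± 0.32 and 6.0 ± 0.51 (SE) on the log2 scale. On the other side of the type II block, Krt2, an upper epidermal keratin, was close to 1 CPM in each group. Krt72, the cuticle keratin inside that block, fell with the members, at 6.97, 2.75 and 12.8 CPM after blistering, versus 61.0, 39.6 and 21.8 CPM in controls (a log2 change of -2.40 ± 0.54 SE, edgeR adjusted p = 0.0233).

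**Figure D3:**
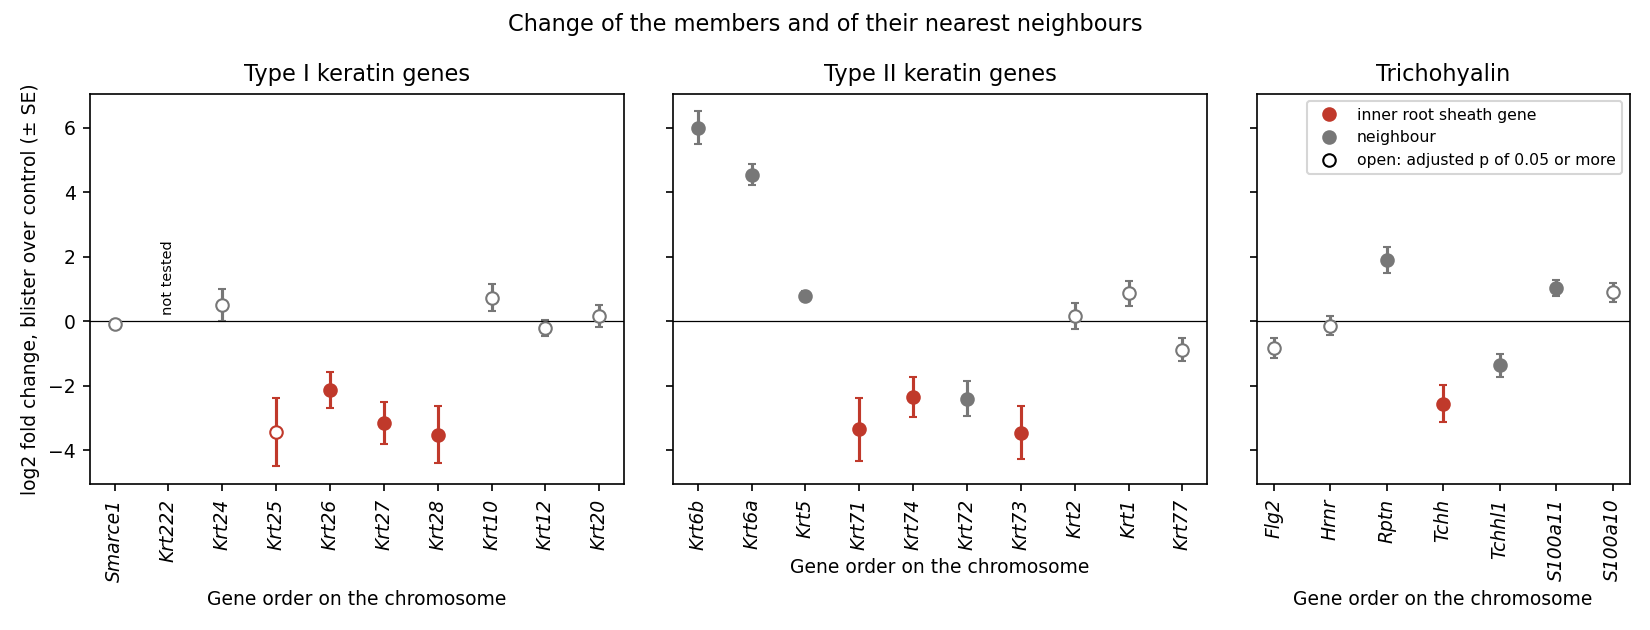
log2 fold change (blister over control, ± SE) of the inner root sheath genes (red) and of their neighbours (grey) in gene order, with open symbols for an edgeR adjusted p of 0.05 or more. The red symbols lie between -3.51 and -2.12, while Krt5, Krt6a and Krt6b beside the type II block lie above 0 and Krt72 within it at -2.40.

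Tchh belongs to a family of fused S100 genes that lie together, and genes of this family were called in both directions. Rptn, the repetin gene next to Tchh and a cornified envelope component, rose from 39.6, 47.2 and 87.9 CPM in controls to 335, 180 and 137 CPM in blister libraries (edgeR adjusted p = 0.0205). Tchhl1, a trichohyalin-like gene on its other side, fell from 26.2, 20.7 and 13.4 CPM to 7.98, 4.27 and 10.8 CPM (edgeR adjusted p = 0.0379). Crnn, the cornulin gene, fell by 2.77 ± 0.57 (SE) on the log2 scale. Hrnr stood at 187 against 206 CPM on average (edgeR adjusted p = 0.752), and the list of 5 held 1 gene that rose and 2 that fell, where 9.74% and 11.6% of all genes were called, with a median log2 fold change of -0.84.

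Of the enzymes that modify trichohyalin, Padi3 moved with it. Padi3, a peptidylarginine deiminase of the follicle, stood at 5.32, 2.75 and 16.0 CPM after blistering, versus 89.5, 52.4 and 48.2 CPM in controls, in the same order of libraries as Tchh. It fell by 2.94 ± 0.56 (SE) on the log2 scale (edgeR adjusted p = 0.0154). Padi1 stood at 6.06, 1.79 and 7.22 CPM against 15.4, 15.2 and 9.33 CPM without passing the test (edgeR adjusted p = 0.0669). The transglutaminase genes did not pass either: Tgm3 stood at 516, 154 and 246 CPM against 139, 199 and 80.9 CPM (edgeR adjusted p = 0.122) and Tgm1 at 399, 214 and 242 CPM against 165, 201 and 138 CPM (edgeR adjusted p = 0.0694), both of which interfollicular epidermis also makes. Of 7 tested members of this list 1 fell and 0 rose, where 11.6% of all genes were called lower, with a median of -0.13. Over all genes tested, 5477 had an unadjusted p under 0.05 in edgeR's test and 2993 were called.

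Among other genes of the inner root sheath and of the companion layer beside it, Krt72, Krt75 and Cux1 fell. These are 3 of 6 tested, and 0 rose in edgeR's test, where 11.6% of all genes were called lower, with a median log2 fold change of -1.01 that was not tested against the members. Krt75, the companion layer keratin, stood at 22.3, 11.8 and 118 CPM after blistering, versus 312, 253 and 329 CPM in controls, with blister 3 set apart as for the members (edgeR adjusted p = 0.0495). Cux1, a homeodomain factor of the sheath that other cells also make, fell by 1.65 ± 0.27 (SE) on the log2 scale (edgeR adjusted p = 0.0106). Gata3, a factor needed for inner root sheath fate that interfollicular keratinocytes also express, stood at 130, 139 and 155 CPM against 186, 167 and 142 CPM, and the groups overlapped (a log2 change of -0.22 ± 0.14 SE, edgeR adjusted p = 0.261). Liph and Lpar6, which make and sense lysophosphatidic acid in the sheath, also overlapped, with edgeR adjusted p of 0.312 and 0.788.

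Set beside the other layers of the follicle, the 8 genes had the lowest median of the lists of keratinocyte genes, and no test of the difference between lists was made. The dermal papilla list, which is not of keratinocytes, had a lower median of -3.71 over 4 tested genes. The hair shaft keratins had 10 of 13 tested members that fell and 0 that rose, with a median log2 fold change of -2.46, where 11.6% of all genes tested were called lower. Krt86 and Krt32, the shaft keratins with the smallest p, had log2 fold changes of -1.58 ± 0.26 and -1.96 ± 0.34 (SE). Krt35 had the largest log2 change of that list, -3.70 ± 1.06 (SE), beyond that of any of the members. Summed over the lists, CPM of the 8 genes was 4.42, 4.47 and 6.75 times that of the shaft keratins in blister libraries and 8.13, 7.88 and 6.19 times in controls, and the groups overlapped. Regulators of the hair matrix, where sheath and shaft cells originate, had 5 of 8 that fell, with a median of -1.85. Shh, the Hedgehog ligand of the follicle, stood at 13.8, 11.7 and 12.8 CPM against 44.3, 29.5 and 44.5 CPM, so that blister 3 was not set apart for it, and Lef1, a Wnt effector, stood at 21.0, 16.2 and 16.8 CPM against 53.6, 39.2 and 52.7 CPM. In the list of outer root sheath and progenitor genes 4 of 5 fell, with a median of -1.58, led by Lhx2 (33.2, 33.2 and 66.8 CPM against 179, 200 and 197 CPM) and Tcf7l1.

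**Figure D4:**
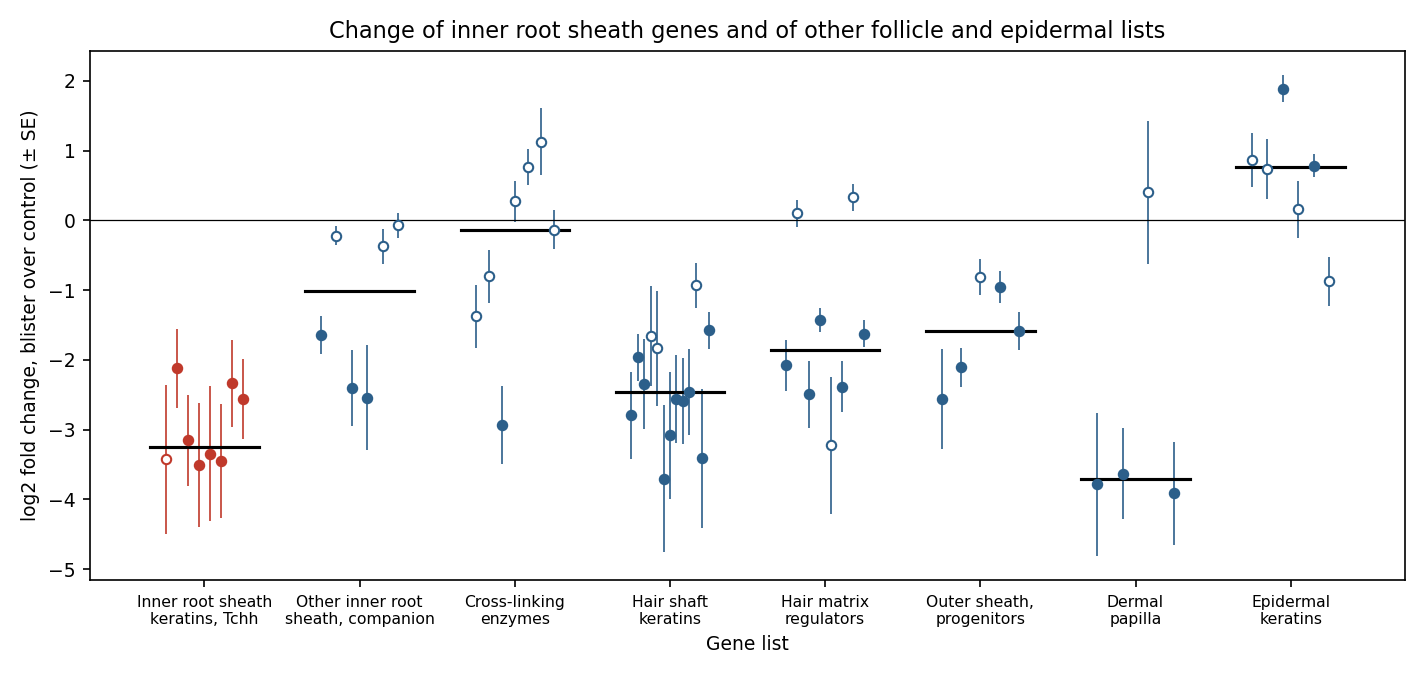
log2 fold change (blister over control, ± SE) of each tested gene in 8 lists, with open symbols for an edgeR adjusted p of 0.05 or more and a bar at the list's median. The inner root sheath genes (red) have a median of -3.25, the dermal papilla list -3.71, the hair shaft keratins -2.46, the matrix regulators -1.85 and the epidermal keratins 0.76.

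Relative to the epidermal keratins the groups lay further apart. Of 6 epidermal keratins 2 rose, Krt14 and Krt5 of the basal layer, and 0 fell, where 9.74% of all genes were called higher. Summed CPM of the 8 genes was 0.10%, 0.109% and 0.819% of that of the epidermal keratins in blister libraries 1 to 3 and 8.48%, 3.44% and 4.33% in control libraries 1 to 3. Krt14, a defining marker of the labelled epidermal cells, ran from 7435 to 32566 CPM over the 6 libraries.

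Markers of other cells differed between the groups and a marker of sex between libraries, and their part in the results for the 8 genes was not tested. The counts that follow stand beside 11.6% of all genes called lower and 9.74% called higher. Of the dermal papilla list, 3 of 4 tested genes fell (Alx4, Rspo3 and Corin). Its summed level ran from 1.19 to 14.3 CPM in blister libraries, highest in blister 3, and from 54.6 to 99.4 CPM in controls. Alx4 was at 0 in blister 2. Crabp1, the other tested gene, was not called (a log2 change of 0.40, edgeR adjusted p = 0.799). It stood at 0.184, 4.82 and 0.340 CPM in blister libraries against 1.30, 0.770 and 1.59 CPM in controls. In blister 2 it made up most of the list's sum of 5.37 CPM. Of the dermal fibroblast list 3 of 8 fell, led by Pdgfra and Lum, with sums of 582 to 1381 CPM against 930 to 7157 CPM that overlapped and were highest in control 3, and none of its genes was at 0 in any library. Of the melanocyte list 3 of 5 fell, led by Pmel and Dct, with sums of 306 to 496 CPM against 782 to 922 CPM. Of the endothelial list 1 of 3 fell (Kdr, with Cdh5 next by p), with sums of 2.94 to 7.71 CPM against 7.67 to 48.7 CPM. Neutrophil markers went the other way, with 3 of 3 tested genes that rose, led by S100a9 and S100a8, and sums of 236 to 708 CPM against 3.78 to 11.5 CPM. Xist, which marks female cells, was at 838, 879 and 8.49 CPM in blister libraries 1 to 3, versus 1409, 16.9 and 0.512 CPM in control libraries 1 to 3, so blister 3 is low in it, unlike the other blister libraries, and control 1, the highest control for each member, is the control high in it. With Xist (log2 CPM) added to the model edgeR called 4 of the 8 lower, where 7.57% of all genes were called lower, and the members' median was -3.42. With the mean level of the fibroblast list in the model it called 2 of the 8, where 1.7% of all genes were called lower, and their median was -4.14.

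The genes whose level followed the 8 most closely were taken by Pearson's r over the 6 libraries between log2 CPM and the mean of the members, among 11231 other genes (mean CPM 5 or more), and r is a description, since the libraries share the group difference. They were Crnn (r = 0.996), Hoxc13 (0.996), Padi3 (0.995), Wnt11 (0.994), AW011738 (0.993), Dclk3 (0.992), Crym (0.992) and Prr9 (0.991). Hoxc13, a homeobox factor of the hair matrix and shaft, stood at 4.86, 4.41 and 16.6 CPM after blistering, versus 62.0, 42.4 and 45.2 CPM in controls. Crym, the crystallin mu gene, stood at 2.29, 0.826 and 7.64 CPM against 50.7, 31.8 and 24.2 CPM. Wnt11, a Wnt ligand gene, stood at 5.69, 4.54 and 14.0 CPM against 36.3, 26.7 and 32.0 CPM. In each of these, as in the members, blister 3 was the highest blister library and stayed below the lowest control. The choice by r over the same libraries favours such a pattern. Of these 8 most alike genes edgeR called 7 lower, against 11.6% of all genes tested. AW011738 was not called (edgeR adjusted p = 0.0581). The 8 were selected by likeness to members that fell, so this count is no separate evidence.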

How the data were processed

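The members and the gene lists were chosen with earlier results of these data known. RNA-seq was made from 3 blister and 3 control libraries. Per the submitters' processing notes, the authors aligned reads with HISAT2 2.0.0 and counted them with featureCounts (no version stated); the notes list NCBIM37 and mm9, without roles, so coordinates here are only those of RefSeq windows in GRCm38.p6. The deposited values are raw counts per gene symbol, and strand setting, read length and the rule for reads of several genes are not stated. Totals ran from 7600567 to 15912863 counts. The test was edgeR's (4.0.16, R 4.3.3) quasi-likelihood F-test, TMM scaling, group as the term, filterByExpr (minimum count 10, minimum total 15; 14028 genes), Benjamini-Hochberg over all genes, threshold 0.05, two-sided. SE is the log2 fold change over the root of F. Named genes were all 8 members, the 2 smallest p of each other list and the 8 most alike genes (log2 CPM, prior count 2); others were chosen after their values were seen. The test was checked on simulated data. Ratios, motifs and neighbour windows were chosen after counts and promoters were seen. Intervals cover counting error only. Alternatives were other scalings and filters, DESeq2 1.42.0, a replicate block, covariates, leaving out the 50 most abundant genes, and leaving out libraries. No 2 libraries were copies. Alignments used Biopython 1.88 and figures matplotlib 3.10.9.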

Additional observations from a re-analysis of the deposited data

How the results depend on the processing

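The log2 fold change of each member was below 0 in all 127 refits of single members over the 16 alternatives. Each member was lower in every blister library than in any control, so fits that left out libraries had little room for another sign. In 82 of the refits the call was the same, in 39 a call was lost and in 6, all of Krt25, one was gained. In what follows, counts of members are lower calls and counts of all genes are calls in either direction. The counts moved by over 1.5 times with the Xist covariate (4 members, 1782 of all genes) and with the fibroblast covariate (2 members, 498 genes). The main fit gave 7 members and 2993 genes. Both covariate fits spend a degree of freedom, and the cause was not tested. Leaving out 1 library gave 0 to 8 members and 785 to 4061 genes. The lowest counts came without control 1 (785 genes) and blister 1 (1028), then control 2 (1299) and control 3 (1315); fewer samples were fitted there. Without both libraries numbered 3, the members' summed CPM differed by -4.74 on the log2 scale (blister over control); without blister 3 it was -4.56; the value over all libraries was -3.13. Same-numbered blister and control libraries did not all deviate together (r of 0.21, -0.26 and 0.011), and 1 of 3 correlated best with its own number. With 3 libraries per group such r cannot decide whether same-numbered libraries were paired, and the labels do not state it. The numbers are used here as names of libraries. With the replicate number as a block, 7 members were called lower. Of 14028 genes, 2876 were called in either direction and 1511 lower. Among the members Krt25 entered (edgeR adjusted p = 0.0469) and Krt74 left (0.0617). Depth limits Krt74, with 4 counts in blister 1 and 2, and it was not tested under the filter of at least 5 CPM in 3 libraries.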

Other observations

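Some hair shaft keratins held a spread like that of the inner root sheath genes, and others did not. Krt35 and Krt85, the hair keratins made first as matrix cells enter the shaft, were low in blister 1 and 2. Krt35 had 1.28, 1.79 and 37.9 CPM after blistering, versus 231, 127 and 194 CPM in control libraries 1 to 3. Krt85 had 0.551, 0.688 and 18.8 CPM after blistering, versus 98.7, 53.1 and 73.1 CPM. Blister 3 stood far above the other blister libraries in both, as it did for Krt25 and Krt71. Krt31 and Krt34, keratins of the shaft cortex, were spread otherwise. Krt31 had 3.49, 0.826 and 7.22 CPM after blistering, versus 42.6, 24.9 and 16.2 CPM, and Krt34 had 3.21, 0.138 and 6.96 CPM, versus 19.6, 12.8 and 6.03 CPM. For Krt34 the groups overlapped. Blister 3 was also less set apart for Krt32 (7.34, 4.68 and 10.0 CPM in blister libraries 1 to 3) and Krt86 (9.36, 11.2 and 17.2 CPM). For Krt84 it lay below blister 1 (2.48, 1.24 and 1.53 CPM). Whether these shaft keratins differ in their response was not tested.

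Lgr5, a marker of follicle progenitors, was also highest in blister 3 among the blister libraries, at 2.02, 2.20 and 16.9 CPM against 36.5, 40.9 and 51.6 CPM in controls (edgeR adjusted p = 0.0428). Foxn1 and Ovol1, epithelial factors that interfollicular epidermis also makes, overlapped between the groups, with edgeR adjusted p of 0.731 and 0.249. Msx1, a homeobox gene of the matrix, had 0 counts in blister 1 and 2 and stood at 1.44 CPM in blister 3 and at 6.67, 3.01 and 5.57 CPM in controls (edgeR adjusted p = 0.0539).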
